A study of Emberiza bruniceps with 4 samples.

Results

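The genes described here carry thyroid hormone into brain cells, activate it there, bind it, or receive the pituitary signal that controls its activation. They were chosen by protein name: any iodothyronine deiodinase, thyroid hormone receptor alpha or beta, plasma membrane transporters of the hormone, among them MCT10 (SLC16A10) and SLCO1C1, and the thyrotropin receptor (TSHR). In all, 7 of the 11975 protein names with counts met the rule, and the 6 described are DIO1, DIO2, THRA, SLC16A10, SLCO1C1 and TSHR. Each of the 7 was among the 10581 genes analysed, those with a mean of at least 1 CPM (counts scaled to the same total of matched counts) over the libraries. No contig had a kept match named thyroid hormone receptor beta or type III deiodinase, and both were not analysed here.

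RNA had been sequenced from the hypothalamus of wild-caught red-headed buntings (Emberiza bruniceps), migratory songbirds that breed under long days. There were 4 groups of 1 library each: spring castrated, spring intact, autumn castrated and autumn intact. The labels state neither the sex or age of the birds, nor how many birds a library holds, nor how long after castration the tissue was taken. Libraries held from 16840270 to 26213011 estimated counts, of which 39.1% to 41.7% fell on contigs with a match to a flycatcher protein.

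The thyroid gland releases mostly thyroxine, a prohormone. Type II deiodinase removes an iodine atom from its outer ring to make triiodothyronine, the form that binds the nuclear receptors, and the transporters bring both into cells. In quail and other birds, long days raise thyrotropin in the pars tuberalis of the pituitary, thyrotropin acts on its receptor in tanycytes lining the third ventricle, and these cells then make more DIO2, a switch known for setting the gonads in motion in spring.

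With 1 library per group no spread within a group can be measured, so a pair of libraries was compared by size: a gene counts as 2-fold apart where its CPM differ by a log2 ratio of at least 1 in either direction. Ranges in brackets are 95% intervals, exact for the split of counts where they stand on a ratio. Those on a difference between castration ratios are normal approximations (Wald). They cover counting error only, and reads are not independent molecules. A comparison of this kind is one of libraries and not of conditions. In bulk tissue fewer cells of a type and less RNA per cell cannot be told apart. In the castrated libraries the summed level of 11 telencephalon markers was 628 to 646 CPM, against 4016 to 4018 CPM in the intact libraries. Of the 11, 9 were at least 2-fold lower in both seasons and 1, NEUROD6, was at least 2-fold higher in both. The 11 pituitary markers summed to 1529 to 1922 CPM in the castrated libraries and to 418 to 425 CPM in the intact ones, with 9 higher in both, and 4 of them were at 0 in the spring intact and 6 in the autumn intact library. The 13 markers of thalamus, midbrain and hindbrain summed to 667 CPM in the spring castrated against 64.4 in the spring intact library, and to 447 CPM in the autumn castrated against 45.8 in the autumn intact library, with 9 higher in both. The sums of these lists differed, in the same direction in both seasons, between the libraries of every castrated and intact pair compared here. Their part in the differences given here was not tested. Of 13 hypothalamus markers analysed, 3 were higher and 3 lower in the castrated library in spring, and 5 were higher and 1 lower in autumn, with medians of 0.01 and 0.26. Among them TRH had 213 to 349 counts across all libraries. NKX2-1, the 1 marker lower in both seasons, had 16 counts in the spring castrated against 163 in the spring intact library, and 13 in the autumn castrated against 132 in the autumn intact library. The 2 higher in both were POMC, also a pituitary marker, and NR5A1. Castrated against intact, POMC had 624 against 18 counts in spring and 1980 against 1 in autumn. NR5A1 had 113 against 2 and 33 against 0. Gonadal state and a difference in the piece of tissue taken cannot be told apart.

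Length-corrected levels put the thyroid hormone receptor first. THRA, the nuclear receptor that switches genes when triiodothyronine binds it, stood at 9.30 TPM (a share of transcripts after correction for contig length, as the authors' tool gave it) in the spring castrated, 13.7 in the spring intact, 10.2 in the autumn castrated and 12.5 in the autumn intact library. By mean TPM over the libraries the order was THRA (11.4), SLCO1C1 (7.46), DIO2 (4.28), DIO1 (1.57), TSHR (0.735) and SLC16A10 (0.474). The ranges over the 4 libraries overlapped between every pair of neighbours in that order except DIO2 and DIO1, where the lowest DIO2 level, 2.39 TPM, lay above the highest DIO1 level, 2.09 TPM. TPM summed over partial contigs can overstate a level: a contig of 211 bases with 3 counts gave 3.36 of the 12.2 TPM of SLCO1C1 in the autumn intact library.

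**Figure D1:**
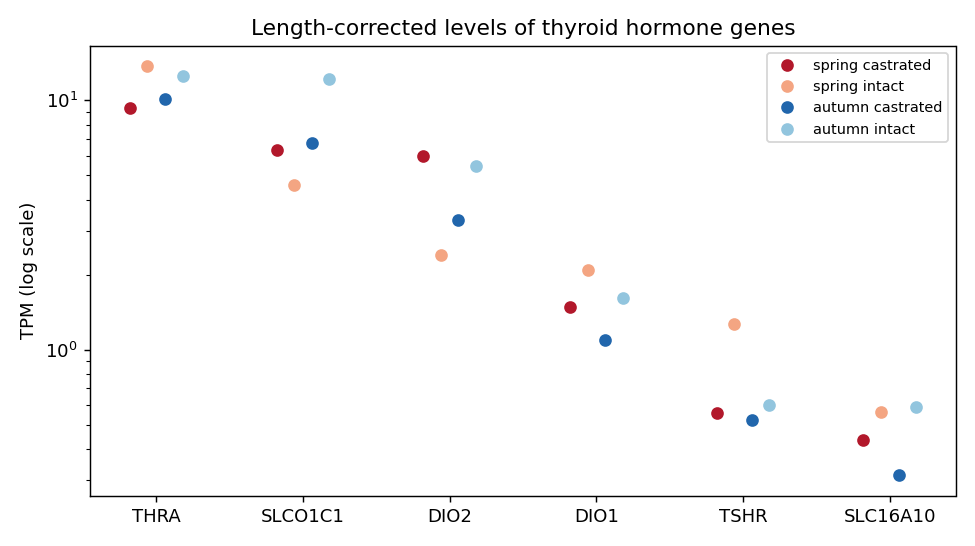
TPM (log scale) of each gene in each library, 1 point per library, with genes ordered by mean TPM. THRA lies highest at 9.30 to 13.7 TPM and SLC16A10 lowest at 0.313 to 0.586 TPM, and only DIO2 and DIO1 are neighbours whose points do not overlap.

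DIO2, the activating enzyme, was the only one of the 7 genes to be called 2-fold apart in any pair. It stood at 35.6 CPM (249 counts) in the spring castrated library, against 14.2 CPM (104 counts) in the spring intact library. In autumn it stood at 19.1 CPM (193 counts) in the castrated and 33.1 CPM (245 counts) in the intact library. The spring castrated and autumn intact libraries were thus the high ones, and the spring intact library was the lowest. Castrated over intact, the log2 ratio was 1.29 (0.99 to 1.67) for the spring pair and -0.78 (-1.07 to -0.51) for the autumn pair. Spring over autumn, it was 0.88 (0.62 to 1.18) in castrated and -1.19 (-1.56 to -0.88) in intact birds. In intact birds the spring library thus had 0.44 times the DIO2 level of the autumn library.

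The direction of the DIO2 difference between castrated and intact libraries turned over with season. The spring log2 ratio exceeded the autumn one by 2.07 (1.64 to 2.50, counting error only), and 2.87% of genes had a difference of larger size. Opposite signs in the seasons were common, at 23.3% of genes, and castration ratios at least 2-fold apart between the seasons were found for 15.2%. Among the other 6 genes the largest such difference was 0.51 (-0.66 to 1.68), for SLC16A10, and each of their intervals held 0. With 1 library per group the difference cannot be tested across samples.

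**Figure D2:**
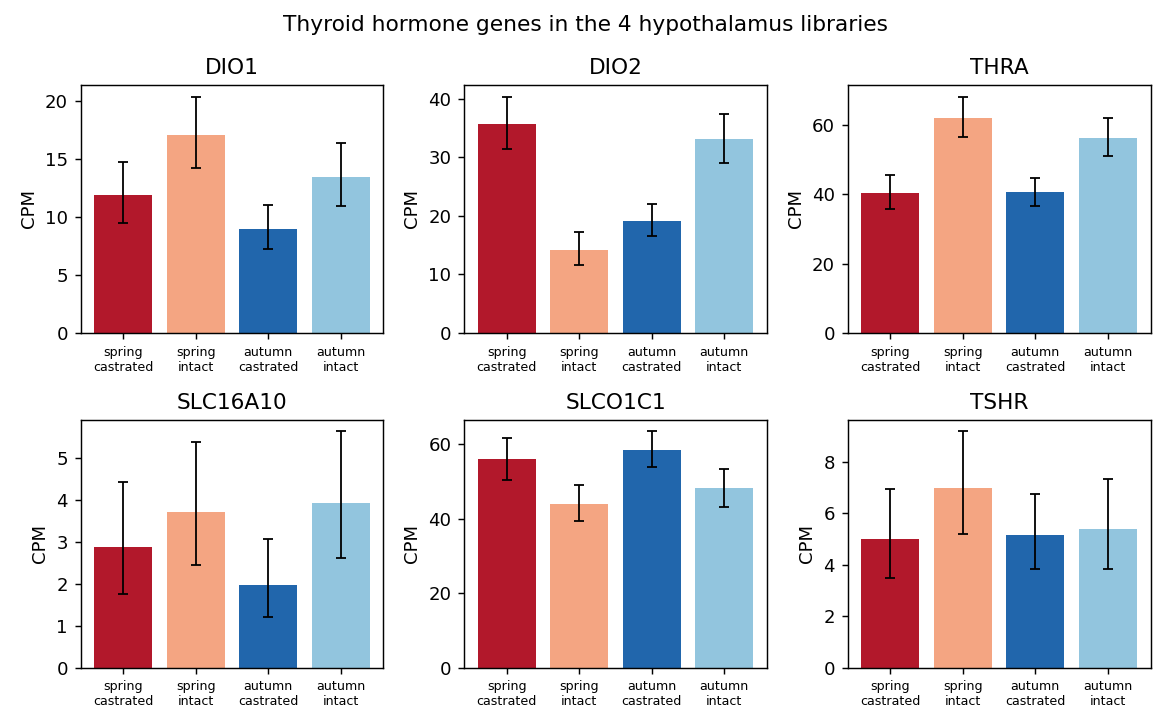
CPM of each gene in the 4 libraries, 1 bar per library, with 95% Poisson intervals for counting error. DIO2 is high in the spring castrated (35.6 CPM) and autumn intact (33.1 CPM) libraries, while THRA and DIO1 are lower in the castrated library of each season.

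The DIO2 count rested on 1 contig of 1955 bases, which took whole counts in every library. Of its translation, 279 residues aligned to flycatcher type II deiodinase at 97.1% identity. A stop codon stood against an undetermined residue at alignment columns 132 and 265, besides 6 substitutions and no gap. As background, deiodinases carry selenocysteine, an amino acid encoded by a codon that otherwise ends translation, and DIO2 of several vertebrates has another near its carboxyl end. The assembler had placed another 2 contigs, of 3242 and 2052 bases, in the same group as the DIO2 contig, which is its bin of contigs that share sequence. Within that group the assembler had given these 2 contigs another gene number than the DIO2 contig. Neither had a kept protein match, so what they encode was not determined.

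Those 2 unmatched contigs together held 990 counts in the spring castrated, 196 in the spring intact, 468 in the autumn castrated and 583 in the autumn intact library. Their order over the libraries was that of DIO2, with the spring castrated library highest and the spring intact lowest. Their log2 ratio of castrated over intact was 2.38 (2.18 to 2.63) for the spring pair and -0.76 (-0.94 to -0.59) for the autumn pair. Spring over autumn, it was 1.60 (1.45 to 1.77) in castrated and -1.53 (-1.79 to -1.32) in intact birds. Added to DIO2, an alternative chosen after seeing the data, they moved its spring castration ratio to 2.1 and its seasonal ratio in castrated birds to 1.43, which then passed 2-fold.

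Markers of cells that can hold DIO2 did not all follow its order. The 8 measured markers of tanycytes, ependyma and astrocytes, with SLC1A2 of astrocytes the largest difference among them, summed to 726 CPM in the spring castrated, 1765 in the spring intact, 747 in the autumn castrated and 1729 CPM in the autumn intact library, which is lower in both castrated libraries. Without SLC1A2 they summed to 633, 862, 669 and 885 CPM in the same order. Of the 8, FOXJ1, a transcription factor of ciliated cells, and SOX9, one of glia, had the directions of DIO2 in both seasons. The 9 choroid plexus markers summed to 1843 CPM in the spring castrated against 682 in the spring intact library, and to 2790 CPM in the autumn castrated against 8558 in the autumn intact library, of which TTR was the largest share in autumn. Without TTR they summed to 1038 CPM in the spring castrated against 443 in the spring intact library. In autumn that sum was 1044 CPM in the castrated and 938 in the intact library, so its direction turned. ENPP2 was the largest of these 8 in autumn, at 752 CPM in the castrated against 428 in the intact library. Gene by gene, the median log2 ratio of castrated over intact for the 9 was 0.34 in spring and -0.72 in autumn. Ratios above 0 were found for 7 of the 9 in spring and for 3 in autumn. Of the 9, which include SLCO1C1, 5 had the directions of DIO2 in both seasons (TTR, KCNJ13, CLIC6, SLC4A5 and SLC13A4). Among all genes 23.3% had opposite signs in spring and autumn, in either order. The 11 markers of endothelium and pericytes summed to between 1038 and 1288 CPM. The part of these cells in the DIO2 values was not tested.

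The genes whose profile over the 4 libraries came closest to DIO2 were lymphocyte antigen 6E-like, cytokine receptor common subunit beta and purpurin. Likeness was measured as the Euclidean distance between log2 CPM values centred on each gene's mean, over 8811 genes with a characterised name and at least 5 CPM, and it was 0.0461, 0.0863 and 0.137 for the 3 genes. Lymphocyte antigen 6E-like had 21.8 CPM in the spring castrated against 8.49 in the spring intact library, and 11.4 CPM in the autumn castrated against 19.3 in the autumn intact library. Over 4 libraries a close profile is a description only.

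DIO1, the type I enzyme that can both activate and inactivate the hormone, did not follow DIO2. It stood at 11.9 CPM (83 counts) in the spring castrated against 17.1 CPM (125 counts) in the spring intact library, and at 9.01 CPM (91 counts) in the autumn castrated against 13.5 CPM (100 counts) in the autumn intact library. Each castrated library was lower than the intact library of its season, with log2 ratios of -0.51 (-0.95 to -0.12) and -0.56 (-1.01 to -0.16) in spring and autumn. The spring libraries were the higher ones in both gonadal states, by 0.38 (-0.05 to 0.84) in castrated and 0.33 (-0.05 to 0.74) in intact birds, with intervals that held 0. The evidence for its identity is thinner than for DIO2: its 2 contigs, of 3103 and 1551 bases, aligned to flycatcher type I deiodinase over 67 and 110 residues in their best matches, at 95.5% and 91.8% identity. A further stretch of 50 residues on the longer contig held a stop codon against an undetermined residue.

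THRA was lower in both castrated libraries. It stood at 40.5 CPM (283 counts) in the spring castrated against 62.2 CPM (454 counts) in the spring intact library, and at 40.6 CPM (410 counts) in the autumn castrated against 56.3 CPM (417 counts) in the autumn intact library. The castrated libraries were nearly level with each other, and both intact libraries lay above them. Castrated over intact, its log2 ratio was -0.61 (-0.84 to -0.40) for the spring pair and -0.47 (-0.67 to -0.27) for the autumn pair. Spring over autumn, the ratio was 0.14 (-0.05 to 0.34) in intact birds and its interval held 0 in castrated birds too (-0.23 to 0.22). Of 5 contigs with this name, 1 held 77.8% of the counts.

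SLC16A10, the transporter MCT10, which also carries aromatic amino acids, had 20 counts in the spring castrated, 27 in the spring intact, 20 in the autumn castrated and 29 in the autumn intact library. At that depth its spring castration ratio of -0.32 (-1.28 to 0.52) and both seasonal ratios had intervals that held 0, while the autumn castration ratio was -0.83 (-1.88 to -0.11).

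SLCO1C1, a thyroxine transporter known from brain capillaries and choroid plexus, was the one gene with a higher summed CPM in both castrated libraries, though not a higher TPM in autumn. It stood at 55.8 CPM (390 counts) in the spring castrated against 44.0 CPM (321 counts) in the spring intact library, and at 58.4 CPM (590 counts) in the autumn castrated against 48.1 CPM (356 counts) in the autumn intact library. The log2 ratios of castrated over intact were 0.34 (0.13 to 0.56) for the spring pair and 0.28 (0.09 to 0.48) for the autumn pair, and the seasonal ratios were -0.06 (-0.25 to 0.12) in castrated and -0.13 (-0.35 to 0.09) in intact birds.

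The SLCO1C1 sum joins contigs that did not behave alike. Its 13 contigs fell into 3 assembler groups. The main group, of 9 contigs at 87.8% to 88.8% identity to the flycatcher protein, stood at 55.1 CPM in the spring castrated, 43.6 in the spring intact, 57.7 in the autumn castrated and 39.3 CPM in the autumn intact library. The other 4 contigs stood at 0.716, 0.411, 0.703 and 8.72 CPM in the same order, and 3 of them had counts in the autumn intact library only. Their identity, 84.1% to 100%, rests on only 26 to 69 aligned residues, against 315 to 689 residues for contigs of the main group. For the main group the autumn log2 ratio of castrated over intact was 0.55 (0.35 to 0.76), against -2.94 (-5.03 to -2.54) for the other contigs, a split made after seeing the data. In TPM, which weights short contigs more, the sign of the autumn ratio of the whole gene turned to -0.81, and its seasonal ratio in intact birds was -1.33.

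A group holding 3 of those 4 contigs also held 11 unmatched contigs, the longest of 5046 bases. These had 39 counts in the spring castrated against 333 in the spring intact library, and 49.2 counts in the autumn castrated against 891 in the autumn intact library. The autumn intact library was highest and both castrated libraries were low, with log2 ratios of -2.92 (-3.55 to -2.55) for the spring pair and -4.49 (-5.08 to -4.22) for the autumn pair. A separate name, solute carrier organic anion transporter family member 1C1-like, which the rule leaves out, had 8, 9, 18 and 37 counts in the spring castrated, spring intact, autumn castrated and autumn intact libraries. Whether any of these contigs belong to SLCO1C1 or to a relative was not determined.

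**Figure D3:**
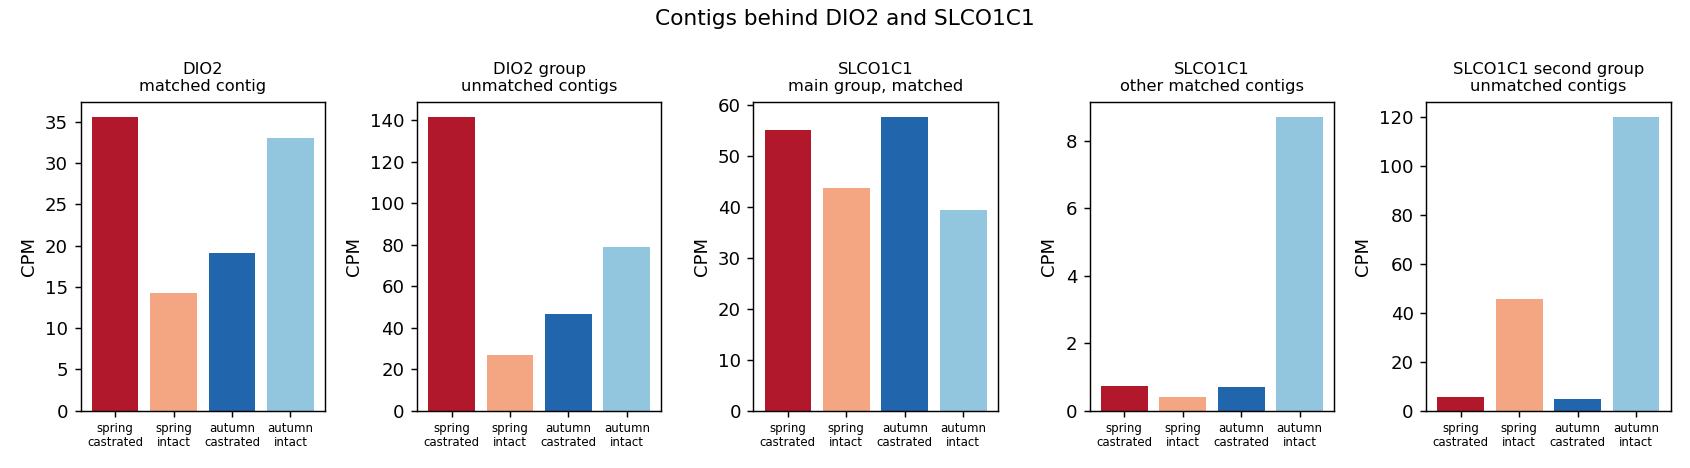
CPM in the 4 libraries for the DIO2 contig, the 2 unmatched contigs of its assembler group, the main SLCO1C1 group, the other 4 SLCO1C1 contigs and the 11 unmatched contigs grouped with 3 of them, each panel on its own scale from 0. The unmatched contigs grouped with DIO2 have its order over the libraries, and the SLCO1C1 contigs outside the main group reach 8.72 CPM in the autumn intact library against at most 0.716 CPM elsewhere.

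TSHR, the receptor through which thyrotropin acts on tanycytes, was measured too shallowly to separate the libraries. It had 35 counts (5.01 CPM) in the spring castrated against 51 (6.99 CPM) in the spring intact library, and 52 (5.15 CPM) in the autumn castrated against 40 (5.40 CPM) in the autumn intact library. The spring intact library was nominally highest, but not on the main contig alone. That contig, with 81.5% of the counts, stood at 4.29 CPM in the spring castrated, 4.66 in the spring intact, 4.65 in the autumn castrated and 4.59 in the autumn intact library. The other 2 contigs, of another assembler group, had 5, 17, 5 and 6 counts in that order. The log2 ratios of TSHR, castrated over intact, were -0.44 (-1.14 to 0.17) for the spring pair and -0.06 (-0.69 to 0.56) for the autumn pair. The seasonal ratios were -0.04 (-0.70 to 0.61) in castrated and 0.34 (-0.25 to 1.01) in intact birds, so no difference was detectable at this depth.

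Counted over the 7 genes, calls were few. The spring pair of castrated and intact birds was 2-fold apart at 1 of 7 genes, DIO2, where 23.2% of all genes were called (8.64% in its direction, higher), and the autumn pair at 0 of 7, where 27.6% were. Spring and autumn libraries were 2-fold apart at 0 of 7 in castrated birds (7.93% of all genes) and at 1 of 7 in intact birds, again DIO2 (7.0% of all genes, 4.39% in its direction, lower). In the same direction in both seasons 0 of 7 were called for castration (14.2% of all genes), and in both gonadal states 0 of 7 for season (0.879%). A single call among 7 genes, set against these shares, is no result about the 7 as a set.

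The sizes were also those of an ordinary gene. The median log2 ratio of castrated over intact was -0.44 for the 7 genes and 0.01 for all genes in spring, and -0.56 and -0.01 in autumn, with 5 and 6 of the 7 below 0. The median size without regard to sign was 0.51 for the 7 and 0.51 for all genes in spring, and 0.56 and 0.59 in autumn. Between spring and autumn the median size was 0.20 for the 7 and 0.30 for all genes in castrated birds, and 0.14 and 0.23 in intact birds. An additive model with terms for season and gonadal state was also fitted to all 10581 genes with edgeR's quasi-likelihood test, and it has 1 residual degree of freedom. In it 0 of 7 genes passed a Benjamini-Hochberg adjusted p of 0.05 for either term, where 22.5% of all genes passed for castration and 0 for season. For THRA, lower in both castrated libraries, the castrated over intact log2 value was -0.54 with edgeR adjusted p = 0.1003, which missed the threshold. The unadjusted edgeR p was under 0.05 for 2 of 7 genes for castration and 0 for season. It was so for 4051 and 538 of the 10581 genes, so neither count is a result about the 7. DESeq2 also called 0 of 7 for either term. For DIO2, whose directions differed between the seasons, the edgeR adjusted p for castration was 0.759, and a term for that difference leaves no residual degree of freedom.

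**Figure D4:**
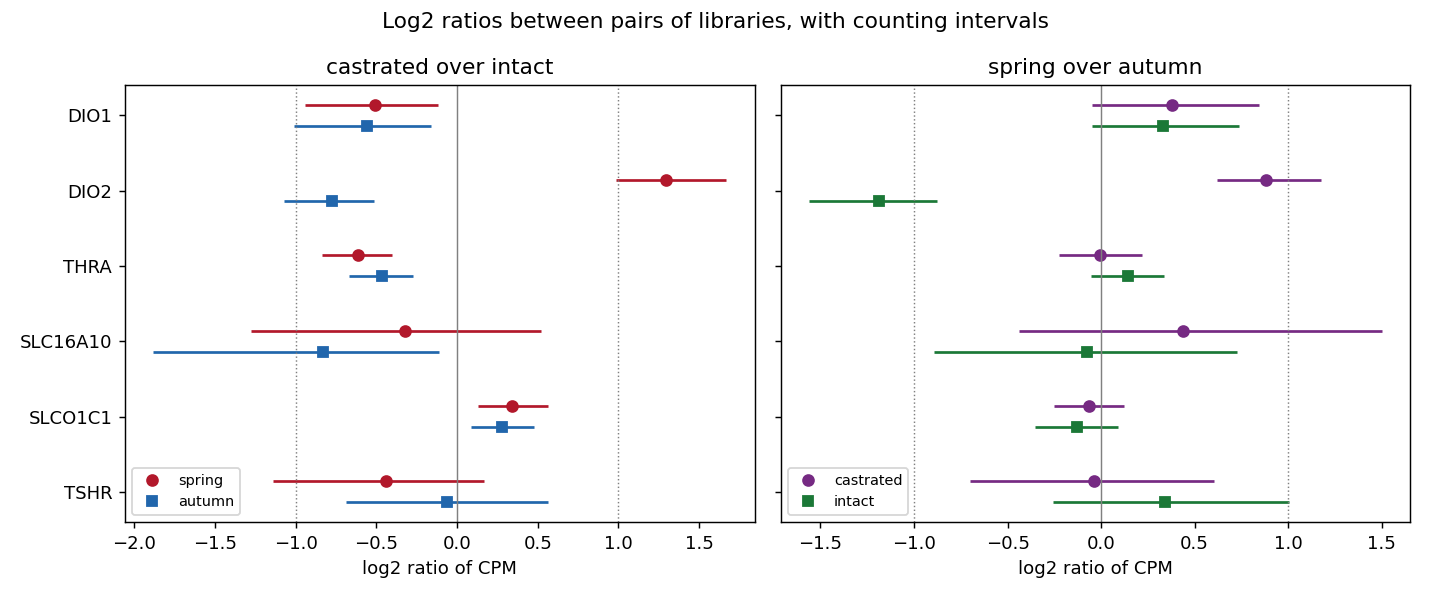
Log2 ratios of CPM for the 6 genes described, castrated over intact in each season (left) and spring over autumn in each gonadal state (right), with lines for 95% counting intervals and dotted lines at 2-fold. DIO2 alone lies on opposite sides of 0 with intervals that exclude 0, in both panels.

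The wider pathway was taken from 6 lists of genes, of which 50 of 68 symbols could be paired with a protein name and 48 were analysed. In the spring pair 6 were at least 2-fold higher and 13 lower in the castrated library, and in the autumn pair 6 were higher and 14 lower, in all 39.6% and 41.7% of the 48, against 23.2% and 27.6% of all genes. The lists were chosen with earlier results of these data known, so these shares are a description and no test of the pathway. They also hold pituitary markers (TSHB, CGA and CHGA) and an oligodendrocyte marker (MBP). Over all genes, those higher in the castrated library were 12.4% and those lower 15.3% in autumn, and those lower in spring 14.6%. Between seasons 2 were higher and 6 lower in the spring library of castrated birds, and 5 were higher and 6 lower in that of intact birds. All genes gave 2.5% higher and 5.43% lower in castrated birds, and 2.61% higher and 4.39% lower in intact birds. The same direction in both seasons was found for 4 higher (TSHB, CGA, MBP and CHGA) and 7 lower in castrated birds (NCOR1, NCOA6, TBL1XR1, HOMER1, TEF, HLF and MTNR1B). Among all genes 4.53% were higher and 9.65% lower in this way. For spring against autumn it was found for 2 lower (TTR and CAMK4) and 0 higher, beside 0.633% and 0.246% of all genes. TSHB, NCOA6 and CAMK4 had 0 counts in both libraries of one side, so they passed the filter only through the other side. Their ratios carry the added 0.5 CPM, and TSHB and NCOA6 lay close to the filter, at means of 1.12 and 1.09 CPM. Counts of calls that include these genes are a description only. The median log2 ratio of the 48 was -0.31 and -0.15 for castration in spring and autumn, and -0.19 and 0.18 for season in castrated and intact birds.

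Upstream of TSHR, both chains of thyrotropin were found in the castrated libraries. They belong to the 7 genes of the central thyroid axis, of which 3 were higher and 0 lower in the spring castrated library, and 2 higher and 1 lower in the autumn one. All genes gave 8.64% higher and 14.6% lower in spring, and 12.4% higher and 15.3% lower in autumn. TSHB, the chain specific to thyrotropin, had 7 counts in the spring castrated against 0 in the spring intact library, and 35 in the autumn castrated against 0 in the autumn intact library. TSHB thus passed the filter only through the castrated libraries. Set against 3 counts per library, the limit a count of 0 allows, it was at least 2.44-fold higher in spring and at least 8.56-fold higher in autumn, bounds that take the higher count as it stands. With counting error in that count too, the lower limits of the log2 ratio were 0.59 and 2.72. CGA, the alpha chain shared with the gonadotropins, had 3637 counts in the spring castrated against 0 in the spring intact library. Set against 3 counts it was at least 1267-fold higher, and with counting error too the lower limit of its log2 ratio was 10.01. In autumn CGA had 328 counts in the castrated against 2 in the intact library, a log2 ratio of 5.42 (5.05 to 9.96). Between seasons the chains differed: spring over autumn in castrated birds, the log2 ratio was 3.98 (3.84 to 4.17) for CGA and -1.40 (-3.21 to -0.60) for TSHB. FSHB, the beta chain of follitropin, had 1035 counts in the spring castrated against 0 in the spring intact library. In autumn it had 6 in the castrated against 1 in the intact library. How much CGA belongs to thyrotropin cannot be told. The rest of the pituitary list was also higher in the castrated libraries, as given above, and its part in these values was not tested. TRH, the hypothalamic peptide that releases thyrotropin, stayed between 28.8 and 37.5 CPM, with log2 ratios of castrated over intact of 0.01 (-0.24 to 0.26) for the spring pair and 0.26 (0.02 to 0.52) for the autumn pair.

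Carriers and binding proteins divided. TTR, the carrier of thyroxine in cerebrospinal fluid, was lower in spring in both gonadal states, by log2 ratios of -1.12 (-1.16 to -1.07) in castrated and -4.99 (-5.07 to -4.93) in intact birds. Its levels were 806 CPM in the spring castrated, 239 in the spring intact, 1747 in the autumn castrated and 7620 CPM in the autumn intact library, highest in the autumn intact and lowest in the spring intact library. The other 8 choroid plexus markers summed to 1038, 443, 1044 and 938 CPM in the same order, so in castrated birds their sum was nearly level between the seasons. ENPP2 gave most of that sum in castrated birds, at 805 CPM in spring and 752 CPM in autumn. Marker by marker, 5 of the 9, TTR included, were at least 2-fold lower in the spring library of intact birds and 0 higher. Their median log2 ratio was -1.98. In castrated birds 2 were lower and 0 higher, with a median of -0.06. Among all genes 4.39% were lower in this way in intact and 5.43% in castrated birds. The part of choroid plexus tissue in the TTR values was not tested. Castrated over intact, TTR had the directions of DIO2, at 1.75 (1.68 to 1.83) for the spring pair and -2.12 (-2.15 to -2.1) for the autumn pair. CRYM, which binds triiodothyronine inside cells, had 40.1 CPM in the spring castrated against 72.6 in the spring intact library, and 45.5 CPM in the autumn castrated against 57.5 in the autumn intact library, with no pair past 2-fold. Serum albumin (ALB) stayed between 13.8 and 19.5 CPM.

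Of the 6 other transporters and partners analysed, 0 were called in the same direction in both seasons or both gonadal states. Among all genes the shares were 14.2% for castration and 0.879% for season, so 0 of 6 is no result about these genes. SLC7A5, which carries large neutral amino acids and also thyroid hormone, had 244 CPM in the spring castrated, 334 in the spring intact, 195 in the autumn castrated and 210 CPM in the autumn intact library. SLC16A1, a carrier of lactate and other monocarboxylates, stood at 71.6, 57.5, 81.8 and 53.9 CPM in that order, higher in both castrated libraries but with no pair 2-fold apart. SLCO1A2 lay between 36.6 and 45.6 CPM. SLC10A1, a bile acid carrier that also takes up thyroid hormone, varied more, with 16 counts in the spring castrated against 79 in the spring intact library, and 56 in the autumn castrated against 24 in the autumn intact library. Its log2 ratios of spring over autumn were -1.12 (-2.18 to -0.45) in castrated and 1.60 (1.07 to 2.46) in intact birds, that of castrated over intact was -2.02 (-3.12 to -1.45) in spring, and it was named after its values had been seen.

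Of the genes that inactivate the hormone or handle iodide, 3 were analysed. SECISBP2, which the cell needs to read selenocysteine codons such as those of the deiodinases, had 232 CPM in the spring castrated, 280 in the spring intact, 253 in the autumn castrated and 292 CPM in the autumn intact library. Thyroglobulin (TG), the thyroid's storage protein, had 13 to 35 counts. Iodotyrosine deiodinase 1 (IYD), which recovers iodide and is not a deiodinase of the hormone itself, had 18 counts in the spring castrated, 15 in the spring intact, 23 in the autumn castrated and 0 in the autumn intact library. Set against 3 counts per library, the castrated library was at least 5.62-fold higher in autumn, taking its count as it stands. With counting error in that count too, the lower limit of the log2 ratio was 2.08.

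Partners of the receptor were lower in the castrated libraries where they were called. Of 13 analysed, 4 were lower and 0 higher in spring, and 6 lower and 0 higher in autumn, with medians of -0.35 and -0.54. Among all genes 14.6% were lower and 8.64% higher in spring, and 15.3% lower and 12.4% higher in autumn. NCOR1, the corepressor that unliganded THRA binds, stood at 252 CPM in the spring castrated against 530 in the spring intact library, and at 206 CPM in the autumn castrated against 447 in the autumn intact library. Its log2 ratios were -1.07 (-1.16 to -0.99) and -1.12 (-1.20 to -1.04). TBL1XR1, a subunit of the same corepressor complex, had log2 ratios of -1.43 (-1.63 to -1.25) and -1.28 (-1.46 to -1.12). The coactivator NCOA6, on 1 contig, had 0 counts in both castrated libraries, against 23 counts in the intact library of spring and 9 in that of autumn. NCOA6 passed the filter only through the intact libraries. The acetyltransferases EP300 and CREBBP each had log2 ratios of -0.29 in spring and -1.02 in autumn, and PPARGC1A, a coactivator of energy metabolism, lay between 74.8 and 122 CPM. The summed level of telencephalon markers was lower in the same libraries, and the part of that tissue in these values was not tested.

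Genes known from rodent brain to respond to thyroid hormone had median log2 ratios of castrated over intact of -0.64 in spring and -0.43 in autumn. Of 9 analysed, 1 had a ratio above 0 in spring (MBP) and 2 in autumn. At least 2-fold apart, 1 was higher and 2 were lower in the castrated library in spring, and 1 was higher and 3 were lower in autumn. The shares over all genes were 8.64% higher and 14.6% lower in spring, and 12.4% higher and 15.3% lower in autumn. MBP, a myelin protein, had 8359 CPM in the spring castrated against 3556 in the spring intact library, and 6388 CPM in the autumn castrated against 1965 in the autumn intact library. The 5 oligodendrocyte markers, which include MBP, summed to 20504 CPM in the spring castrated against 9329 in the spring intact library, and to 17271 CPM in the autumn castrated against 5411 in the autumn intact library. HOMER1, a scaffold of glutamate synapses, was lower in castrated birds, with log2 ratios of -2.05 (-2.17 to -1.94) for the spring pair and -2.62 (-2.75 to -2.52) for the autumn pair. RELN, an extracellular guide of neuron migration, had log2 ratios of -1.49 (-1.55 to -1.43) for the spring pair and -0.55 (-0.61 to -0.49) for the autumn pair, and sonic hedgehog (SHH) had 11.5 to 15.6 CPM. CAMK4, a calcium-dependent kinase on 1 contig, had 0 counts in both spring libraries against 15 in the autumn castrated and 182 in the autumn intact library. Set against 3 counts per library, it was at least 3.46-fold lower in spring in castrated and 59.8-fold lower in intact birds, taking the autumn counts as they stand. With counting error in those counts too, the upper limits of the log2 ratio of spring over autumn were -1.31 and -5.59.

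**Figure D5:**
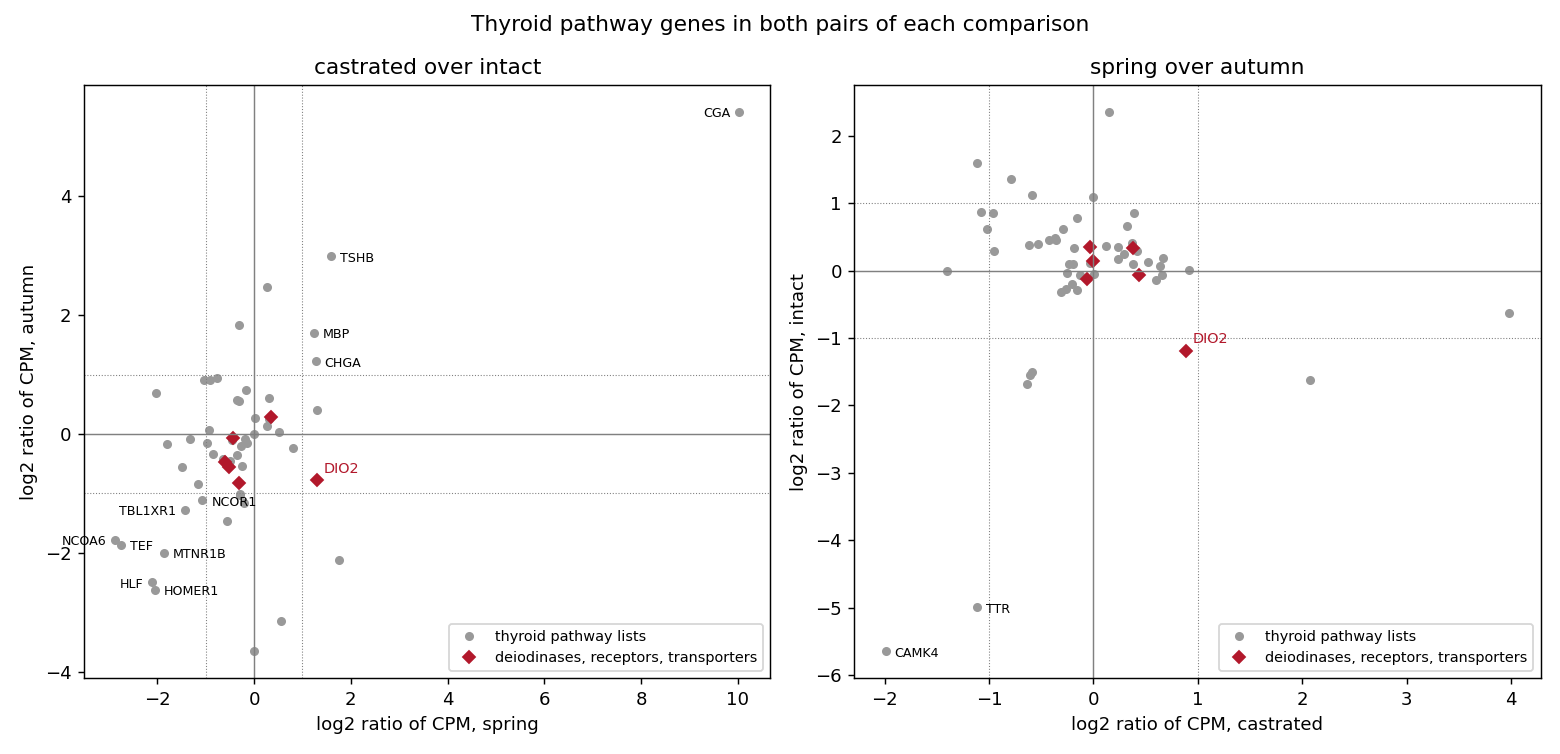
Log2 ratios of CPM of the 50 paired pathway genes (grey), of which 48 were analysed, and the 6 genes described (red). Castrated over intact is shown in spring against autumn (left), and spring over autumn in castrated against intact birds (right). Dotted lines mark 2-fold, and genes past 2-fold in the same direction in both are named. Ratios of TSHB, CGA, IYD, UGT1A1, NCOA6 and CAMK4, which had 0 counts in some libraries, carry the added 0.5 CPM and are not bounds. DIO2 is the only red point past 2-fold in either panel.

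Of 11 genes of photoperiod signalling analysed, 2 were higher and 5 lower in the castrated library in spring, and 2 were higher and 4 lower in autumn. Beside them, 8.64% of all genes were higher and 14.6% lower in spring, and 12.4% higher and 15.3% lower in autumn. TEF and HLF, transcription factors of the clock output (TEF is known in mammals as an activator of the thyrotropin beta gene), were lower in both castrated libraries, HLF at 33.9 CPM in the spring castrated against 148 in the spring intact library and at 23.5 CPM in the autumn castrated against 135 in the autumn intact library. The melatonin receptor gene MTNR1B had log2 ratios of castrated over intact of -1.86 (-2.65 to -1.37) for the spring pair and -2.0 (-2.64 to -1.62) for the autumn pair. Chromogranin-A (CHGA), also among the pituitary markers, had ratios of 1.27 (1.21 to 1.34) and 1.22 (1.17 to 1.28). EYA3, a coactivator of the thyrotropin beta gene in mammals, lay between 40.7 and 52.1 CPM, with log2 ratios of spring over autumn of -0.20 (-0.42 to 0.01) in both gonadal states. The melatonin receptor MTNR1A and opsin-3 (OPN3) were low, at 2.70 to 6.44 and 1.89 to 8.02 CPM, and their log2 ratios of spring over autumn in intact birds were 1.12 (0.47 to 2.09) and 1.36 (0.67 to 2.56), against -0.59 (-1.40 to 0.04) and -0.79 (-1.5 to -0.24) in castrated birds.

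A further 2 genes were picked after their values had been seen. The ectoenzyme that degrades TRH, a gene that triiodothyronine raises in rodent tanycytes, had 36.4 CPM in the spring castrated against 95.3 in the spring intact library, and 26.7 CPM in the autumn castrated against 63.2 in the autumn intact library, lower in both castrated libraries. GNRH1, the gonadotropin-releasing hormone that the thyroid switch acts on, had 17 counts in the spring castrated, 11 in the spring intact, 2 in the autumn castrated and 42 in the autumn intact library. The autumn intact library was highest for GNRH1, and the autumn log2 ratio of castrated over intact was -3.14 (-7.93 to -2.90).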

How the data were processed

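Hypothalamic RNA from 4 libraries, grouped by the group each label states, was analysed from the authors' files. Trimmomatic and kallisto stand in the submitters' processing notes, without a version. The contig names carry the prefix of the Trinity assembler, without a version. Not given in the sources used here is the protein search tool. The authors deposited estimated counts per contig, kallisto's fractional shares of reads, which are not normalized, and TPM, which corrects them for contig length. The authors also deposited matches of contigs to flycatcher proteins, with a bit score, an e-value, and the percent identity and percent of the contig aligned.

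Each of 507906 contigs was given its match with the highest bit score among those with an e-value up to 1e-05. A match was kept for 50994. Estimated counts were summed over contigs of the same protein name, without isoform text, and rounded to whole numbers. CPM used the matched totals scaled by TMM factors (1.03 spring castrated, 1.01 spring intact, 0.925 autumn castrated, 1.04 autumn intact), with the trims of edgeR, and 0.5 CPM was added before log2 ratios. Intervals on ratios came from the exact binomial split (Clopper-Pearson) without the added CPM. Intervals on the difference between castration ratios of spring and autumn were Wald intervals from the counts. A count of 0 allows up to 3 counts, which is 0.297 to 0.429 CPM. The additive fits of season and gonadal state used edgeR 4.0.16 and DESeq2 1.42.0 in R 4.3.3, and the rest Python 3.11.15 with numpy 2.4.6, pandas 2.3.3 and scipy 1.17.1. The ratio, interval and fit steps were tested on simulated data.

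Members and gene lists were chosen with earlier results of these data known. Named from the pathway lists were genes past 2-fold in the same direction in each pair of a comparison, and up to 3 more per list with the highest mean CPM. For a member past 2-fold, the 3 genes nearest in profile were named. Symbols were paired by hand with equal protein names. Sequences and genome positions were not analysed here, and 1 of the 7 members, though in the counts and medians, is not reported here. Alternatives were DESeq2 size factors, library totals, no filter or at least 5 CPM, 0.1 or 2 CPM added, TPM, stricter matches (e-value at most 1e-20, identity at least 70%), the most abundant contig per gene, and both additive fits.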

Additional observations from a re-analysis of the deposited data

Results flagged for a closer look

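DIO2 was singled out because its libraries moved in opposite directions under the same contrast: castrated over intact, its log2 ratio was 1.29 in spring and -0.78 in autumn, and spring over autumn it was 0.88 in castrated and -1.19 in intact birds. With 1 library per group the difference was not tested across samples.

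The 2 contigs without a protein match in the assembler group of DIO2, which no comparison of genes uses, had a spring log2 ratio of castrated over intact of 2.38, with 990 counts in the castrated and 196 in the intact library. The assembler had given them another gene number than the DIO2 contig, and what they encode was not determined.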

How the results depend on the processing

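DIO2 kept its direction in all 4 pairs under each of 9 alternatives, with castration ratios between 1.16 and 1.33 for spring and between -0.94 and -0.64 for autumn. Some of these could hardly have turned it. Both changes of filter left its ratios as they were, and stricter matches and the most abundant contig used the same 1 contig. THRA, DIO1 and SLC16A10 kept the direction of their castration ratios in both seasons under each alternative that could be run, and TSHR did so in spring only. Library totals, which shifted the median of all genes by -0.17 in the autumn castration pair and 0.16 in the seasonal pair of castrated birds, called 1 member (DIO2) in that seasonal pair, as did adding the unmatched contigs. Adding these contigs, an alternative chosen after seeing the data, also called 1 member in the autumn castration pair, SLCO1C1, at -1.38, and turned its spring ratio to -0.57. TPM, where 5 members passed the filter, called 2 in the seasonal pair of intact birds, DIO2 and SLCO1C1. SLCO1C1 was the member that depended most on the processing: its autumn castration ratio was -0.81 in TPM, 0.51 with stricter matches and 0.65 on its most abundant contig.

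Counts over all genes moved by more than 1.5 times in the seasonal pairs. In castrated birds 839 genes were 2-fold apart, but 525 with at least 5 CPM, 515 with 2 CPM added and 1750 on the most abundant contig. In intact birds 741 became 426, 436 and 1680 in the same order, and the 93 in the same direction in both became 53, 39 and 282. The additive fits called 2377 genes (edgeR) and 2266 (DESeq2) for castration, against 1500 by size. For season edgeR called 0 at an adjusted p of 0.05, with 538 at an unadjusted p under 0.05, and DESeq2 called 12, with 336. The causes were not tested. No paired analysis was possible because each group holds 1 library and the labels give no replicate numbers. No replicate could be left out, for the same reason. Counts of 20 to 52 for SLC16A10 and TSHR limit what could be seen for them.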
